A study of Danio rerio with 2 samples.

Results

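The wound edge, sections 18 to 26 of an injured zebrafish heart, was compared by its RNA with a muscle-rich stretch of the same heart, sections 30 to 34. Zebrafish ventricles were frozen locally (cryoinjury) in the study, and the heart used here came from an adult fish whose title reads WT, taken as wild type, extracted at 7 days post injury (dpi). It was cut into 12 µm slices from the injury toward remote, uninjured myocardium, and each slice was sequenced by CEL-seq, a method for minute RNA inputs that copies transcripts from their poly(A) tails and amplifies them by in vitro transcription. The 14 sections compared were 9 and 5 of the 38 sections of this heart, and the series holds 78 sections in all. The 14 sections share the injury, genotype, day and slicing and differ in their position along the heart, and no uninjured heart is among them.

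The sections were chosen from the levels of myl7 (listed as MYL7) and cmlc1, the light chains of cardiac myosin, so the difference in these and in other heart muscle genes is a description that supports nothing further. There was 1 heart, and neighbouring sections are not replicates. For that reason no comparison was tested, and a range in parentheses after a fold is the exact 95% interval of how the counts divided between the stretches. Such ranges cover counting error at most, and not the variation between sections or hearts. Reads are not independent molecules unless molecular identifiers are counted, so the ranges can be too narrow even for counting error. Levels are counts per 1000000 gene counts (CPM) of the pooled sections. A CPM is a share of the RNA counted, so a low value can mean fewer cells of a type or less RNA per cell, and these cannot be told apart.

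As background, the zebrafish ventricle regrows muscle from existing cardiomyocytes, which near a wound reduce their contractile apparatus, return to a less mature state and divide. Macrophages and other leukocytes clear dead tissue and persist in the wound, and epicardial and endocardial cells deposit matrix and release signals such as retinoic acid, Notch pathway products and growth factors of the heparin-binding EGF, VEGF and activin families. Mature fish heart muscle runs on oxidative phosphorylation fed by fatty acids, with creatine kinases carrying high-energy phosphate to the filaments.

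MYL7 lay between 119 and 2247 CPM in the wound edge sections, with a median of 654 CPM. In the muscle-rich sections 30, 31, 32, 33 and 34 its levels were 3019, 5279, 4365, 6953 and 5198 CPM. The stretches did not overlap, and within the wound edge the sections nearer the muscle were the higher ones. The light chain gene cmlc1 lay between 152 and 2834 CPM at the wound edge, with a median of 964 CPM, and at 6988, 7740, 9208, 8641 and 17070 CPM in the muscle-rich sections. Just outside the limits, section 17 had 190 CPM of MYL7, section 27 had 1659 CPM, section 29 had 3636 CPM and section 35 had 3376 CPM, against 119 CPM in section 18 and 1458 CPM in section 26. The limits therefore cut through a slope and not at a step.

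The cardiomyocyte markers matched 10 gene IDs, with none under the name vmhc, and all 10 had higher CPM in the muscle-rich stretch. The wound edge held 1166013 gene counts, 2075 to 409798 per section, and the muscle-rich stretch held 1343414, 14813 to 813848 per section. Section 22 held 35.15% of the wound edge counts and section 34 held 60.58% of the muscle-rich counts. Sections 24, 25 and 33 were shallow, under 20% of the 75th percentile of section totals, and in section 24 a single count was worth 482 CPM. The stretches also differ in their deepest IDs: ENSDARG00000077505, unnamed here, took 7.93% of wound edge and 3.16% of muscle-rich counts, and ENSDARG00000080337, also unnamed, took 1.972% and 5.476%.

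**Figure D1:**
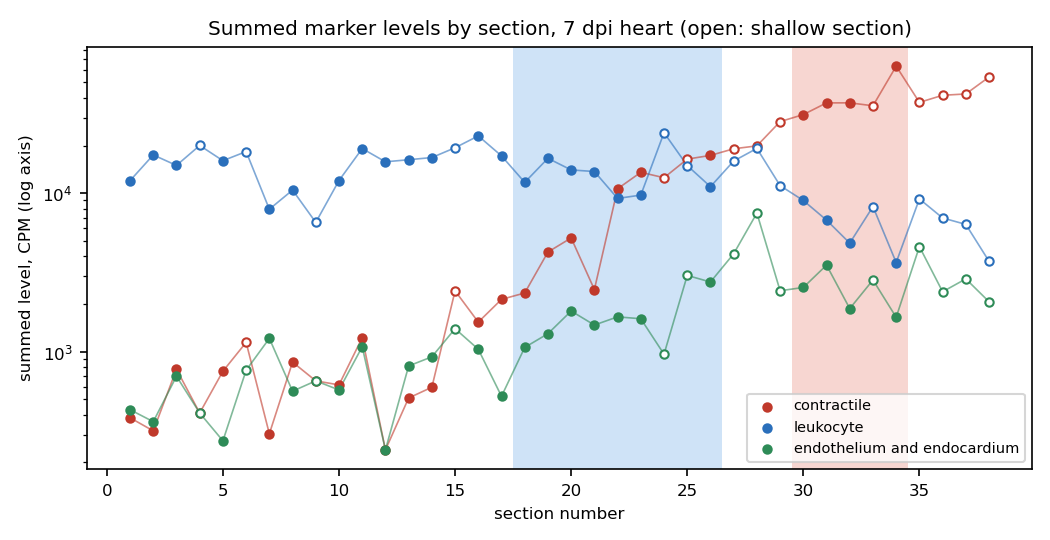
Summed level in CPM, on a log axis, of the contractile, leukocyte and endothelial gene lists in each of the 38 sections, with the wound edge shaded blue and the muscle-rich stretch shaded red, and shallow sections drawn open. The contractile sum climbs from 2347 CPM in section 18 to 17330 CPM in section 26 and lies between 31360 and 63360 CPM in the muscle-rich sections, while the leukocyte sum is between 9273 and 24100 CPM at the wound edge and between 3654 and 9000 CPM in the muscle-rich stretch.

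With at least 50 counts over both stretches, 3850 genes were measured, and 3379 of them have a name. At least 2-fold apart on log2(CPM + 1) were 813 genes with the higher level at the wound edge, 21.1% of those measured, and 476 with the higher level in the muscle-rich stretch, 12.4%. Without section 34 these counts were 650 (16.9%) and 467 (12.1%) of the same 3850 genes. Either way 508 and 368 genes were counted in the same direction, and 1 gene, FBLN2, passed in opposite directions: its 51 muscle-rich counts were all in section 34. The median gene was 0.31 higher at the wound edge on the log2 scale with section 34 and 0.19 higher without it. Each list below is read against these medians, and its counts of genes against the shares of all genes given above. Under median-of-ratios scaling the median gene came to 0.03 and the split to 502 and 652 genes, so the larger number at the wound edge depends on the scaling. Of the 813 genes, 525 had their highest count in section 22 and 176 in section 18.

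**Figure D2:**
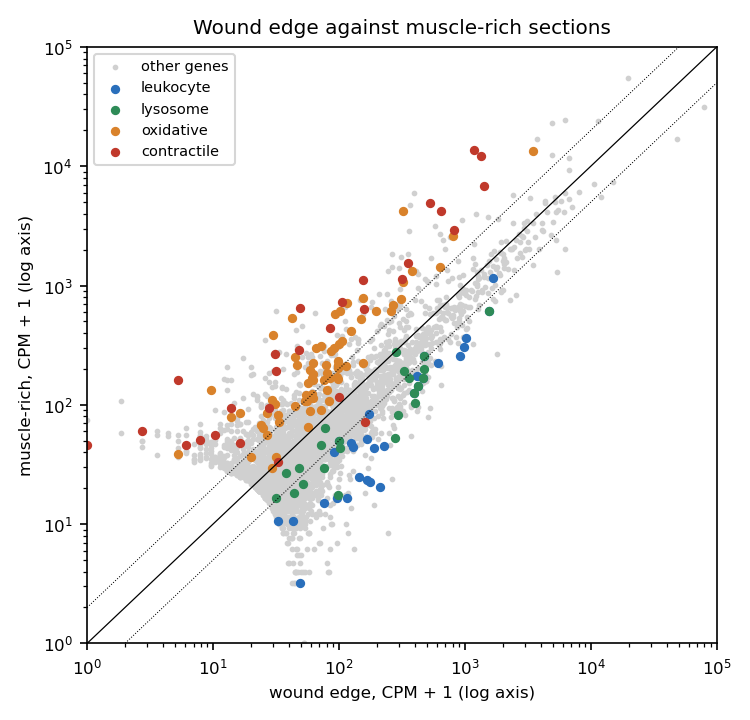
Each of the 3850 measured genes by its level at the wound edge and in the muscle-rich stretch, both as CPM + 1 on log axes, with the line of equal level and the 2-fold lines, and 4 gene lists in colour. The contractile and oxidative genes lie mostly above the upper 2-fold line and the leukocyte and lysosome genes mostly below the lower one.

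The muscle-rich stretch held more of nearly every sarcomere gene. Of 28 contractile genes measured, 25 were at least 2-fold higher there and 1 at the wound edge, and the median difference was 2.64 lower at the wound edge on the log2 scale (−2.64, and −2.30 without section 34). Thick filament genes had folds over the wound edge of 9.29 (8.56–10.1) for MYL7, 11.6 (11.02–12.3) for cmlc1 and 9.19 (8.72–9.69) for MYH7, a heavy chain of slow and cardiac myosin. For MYH7, section 34 alone held 81.95% of the muscle-rich counts, and without it the fold was 4.21 (3.96–4.48). For cmlc1 it was 7.43 (6.99–7.89) without section 34. The myosin gene myh7ba had 60 counts in the muscle-rich stretch and 0 at the wound edge, a level at least 17.4-fold higher when a floor of 3 counts over the wound edge is used. MYOM2, a protein of the M-band that ties thick filaments together, had 216 counts against 5, which was 37.5-fold (15.8–117).

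Thin filament and Z-disc genes lay on the same side. TNNT2, the tropomyosin-binding subunit of troponin, was between 149 and 2892 CPM at the wound edge, with a median of 712 CPM, and at 3941, 2129, 2811, 2970 and 5127 CPM in sections 30 to 34. The stretches overlapped for this gene through section 24, where 6 counts made 2892 CPM. Pooled, it was 6.52-fold (6.04–7.05) higher in the muscle-rich stretch and 4.32-fold (3.96–4.73) without section 34. The calcium-binding troponin gene tnnc1a was 7.16-fold (6.13–8.41) and DES, the intermediate filament desmin, was 4.04-fold (3.44–4.76) higher in the muscle-rich stretch. Titin, listed under the IDs ENSDARG00000028213 and ENSDARG00000000563, was 6.98-fold and 6.06-fold higher. MYOZ2, a Z-disc protein that binds calcineurin, had 80 counts against 2, and LMOD2, which sets thin filament length, had 74 against 11.

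Of the 3 contractile genes not at least 2-fold higher in the muscle-rich stretch, 1 was higher at the wound edge. The tropomyosin gene listed as tpm1 was 161 CPM there and 70.7 CPM in the muscle-rich stretch, 2.28-fold (1.77–2.95) higher at the wound edge with section 34 and 1.47-fold without it. It belongs to the smooth muscle list as well, and its level in the inner wound, sections 1 to 17, was 207 CPM. XIRP2, an actin-binding protein of muscle attachment sites, stood at 99.5 CPM and 116 CPM, and its ratio of muscle-rich to wound edge, 1.17 (0.912–1.497), included 1.

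Natriuretic peptide genes, which heart muscle switches on under strain, went separate ways. nppa, the atrial peptide, was between 55.3 and 964 CPM at the wound edge, with a median of 303 CPM, and at 867, 2141, 2985, 675 and 1295 CPM in sections 30 to 34. Sections 24 to 26 of the wound edge overlapped with sections 30 and 33, and pooled it was 6.94-fold (6.16–7.84) higher in the muscle-rich stretch and 10.1-fold (8.88–11.4) without section 34. nppb, the B-type peptide, lay between 53.6 and 2410 CPM at the wound edge, with a median of 259 CPM, and at 475, 197, 163, 473 and 285 CPM in sections 30 to 34. All 5 muscle-rich sections lay within the wound edge range, and pooled levels of 226 and 251 CPM gave a muscle-rich to wound edge ratio of 1.11 (0.940–1.31), or 0.876 (0.692–1.102) without section 34.

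The stressed cardiomyocyte list as a whole, which includes nppa, split the same way. Of 13 measured, 7 were at least 2-fold higher in the muscle-rich stretch and 0 at the wound edge, with a median difference of −2.15, or −1.49 without section 34 and −0.22 with no count minimum. The 7 included nppa, described above, and MYH7 and tpm4a, which also count as contractile. HSPB1, a small heat shock protein, was another of the 7, at 4.72-fold (4.21–5.31) with section 34 and 2.81-fold (2.44–3.24) without. Near equal were ANKRD1, a strain-responsive nuclear and sarcomeric protein, at 88.3 CPM at the wound edge and 74.4 CPM in the muscle-rich stretch, and FHL2, a LIM protein of the sarcomere, at 51.5 and 47.6 CPM. ACTN1, a non-muscle alpha-actinin, stood at 296 and 171 CPM.

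Calcium handling genes were mostly lower at the wound edge: of 7 measured, 4 were at least 2-fold higher in the muscle-rich stretch and 1 at the wound edge. CASQ2, the calcium store protein calsequestrin of heart muscle, was 17.2-fold (10.1–31.9) higher in the muscle-rich stretch. The calcium pump gene atp2a2a was between 0 and 195 CPM at the wound edge, with a median of 34.6 CPM, and at 168, 197, 211, 67.5 and 302 CPM in sections 30 to 34. The ranges overlapped at sections 30 and 33, and the pooled fold was 4.51 (3.47–5.93). A second ID named ATP2A2, ENSDARG00000005122, went the other way at 78.0 CPM against 34.99 CPM, or 2.23-fold (1.55–3.24) higher at the wound edge, and 1.53-fold (0.987–2.45) without section 34. CACNA1C, the pore of the L-type calcium channel, was higher in the muscle-rich stretch, with 38 counts against 15 at the wound edge, and the calmodulin genes calm1a and calm1b were under 2-fold apart.

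**Figure D3:**
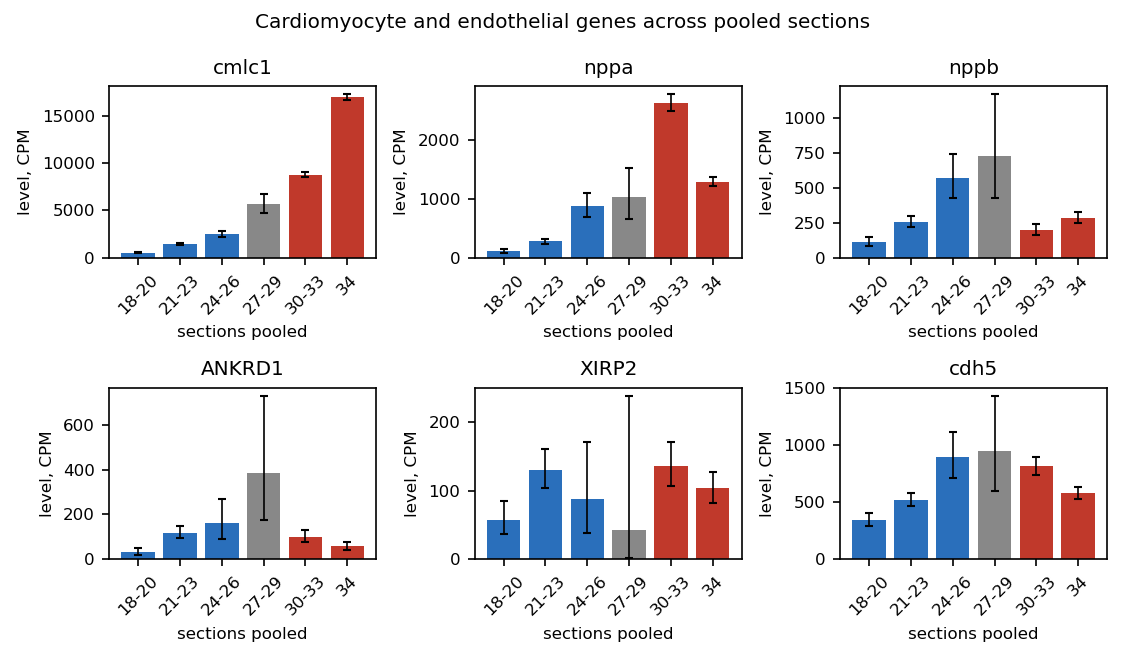
Pooled level in CPM of 6 genes over sections 18 to 20, 21 to 23 and 24 to 26 (wound edge, blue), 27 to 29 (between, grey), 30 to 33 and 34 (muscle-rich, red), with exact 95% Poisson intervals of the counts. cmlc1 climbs to 17070 CPM in section 34 and nppa to 2647 CPM over sections 30 to 33, while nppb is 566 CPM over sections 24 to 26 and 198 CPM over sections 30 to 33.

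Inside the wound edge the heart muscle genes formed a slope. Summed contractile genes held 3382 CPM over sections 18 to 20, 9186 CPM over 21 to 23 and 17120 CPM over 24 to 26, then 23900 CPM over 27 to 29 and 36750 CPM over 30 to 33. nppb climbed along the first part of this slope, from 112 CPM (83.1–149) to 256 CPM (218–298) and 566 CPM (423–742), was 729 CPM (425–1168) over sections 27 to 29 and then 198 CPM (162–240) over 30 to 33. ANKRD1 took the same course, with 29.8, 118, 163, 386 and 100 CPM over these 5 windows, and its interval over sections 27 to 29, 177 to 733 CPM, lay above that of sections 30 to 33, 75.0 to 131 CPM. The windows at 24 to 26 and 27 to 29 rest on 91871 and 23308 gene counts, against 436094 to 813848 in each of the other windows named. Section 32 held 75.1% of the gene counts of sections 30 to 33. A single section held 61.9% of their nppb counts and 90.57% of their ANKRD1 counts. By single section, nppb in section 30 and shallow section 33 lay inside the intervals of sections 24 to 26 and 27 to 29. The remaining sections of 30 to 33 lay below both. The pooled levels over 30 to 33 thus rest largely on a single section. The nppb level of section 34 also lay below both intervals. The part of depth in this course was not tested. nppa had no such drop: it went from 112 to 277, 882, 1030 and 2647 CPM over the same windows, and to 1295 CPM in section 34.

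Genes of energy supply were lower at the wound edge as a group. Of 70 oxidative genes measured, 54 were at least 2-fold higher in the muscle-rich stretch and 0 at the wound edge, with a median difference of −1.44; without section 34 these were 38, 0 and −1.17. Creatine kinases stood among those of largest difference. ckma, the muscle creatine kinase, was between 0 and 1368 CPM at the wound edge, with a median of 197 CPM, and at 3634, 5635, 4285, 5333 and 4019 CPM in sections 30 to 34. The stretches did not overlap, and the fold was 13.1 (11.8–14.6). The mitochondrial creatine kinase CKMT2 was 13.2-fold (9.32–19.3) higher for ENSDARG00000039929 and 15.4-fold (8.16–32.6) for ENSDARG00000069615.

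Fatty acid and respiratory genes had smaller and larger folds within the same list. FABP3, which carries fatty acids in heart muscle, was between 0 and 6673 CPM at the wound edge, with a median of 3328 CPM, and at 6289, 11180, 9037, 11540 and 16090 CPM in sections 30 to 34. Section 23 of the wound edge was above section 30, and no other section overlapped. Pooled, FABP3 was 3.88-fold (3.75–4.01) higher in the muscle-rich stretch and 2.68-fold (2.57–2.79) without section 34. The cytochrome oxidase subunit listed as COX6A1 under ENSDARG00000054588 was 13.04-fold (9.73–17.9) higher, while a second COX6A1 row, ENSDARG00000022438, differed 1.69-fold (1.34–2.14). MDH2, malate dehydrogenase of the citric acid cycle, was 6.16-fold (5.14–7.44) higher.

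All 11 measured transcripts of the mitochondrial genome were at least 2-fold higher in the muscle-rich stretch, with a median of −1.97, and 9 were without section 34, with a median of −1.56. MT-ATP6, a subunit of ATP synthase, was between 4105 and 8311 CPM at the wound edge, with a median of 5783 CPM, and at 16830, 13200, 16090, 19980 and 30130 CPM in sections 30 to 34. Every muscle-rich section was above every wound edge section. Its fold was 3.92 (3.82–4.02), and 2.53 (2.45–2.61) without section 34. Unlike the contractile sum, the mitochondrial sum did not slope inside the wound edge, with 24050, 26010 and 23880 CPM over sections 18 to 20, 21 to 23 and 24 to 26. It was 24620 CPM in the inner wound, where the contractile sum was 812 CPM.

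Glycolysis genes were mostly on the muscle-rich side too: 13 of 19 were at least 2-fold higher there and 1 at the wound edge, with a median of −1.21, and 8 and 1 without section 34, with −0.86. GAPDH and GAPDHS, both named for the enzyme that oxidises glyceraldehyde phosphate, pointed in opposite directions. GAPDH lay between 103 and 1207 CPM at the wound edge, with a median of 427 CPM, and at 1901, 4220, 3819, 2160 and 7438 CPM in sections 30 to 34, a pooled fold of 15.03 (13.7–16.5) and 9.33 (8.43–10.4) without section 34. GAPDHS lay between 731 and 2410 CPM at the wound edge, with a median of 1100 CPM, and at 531, 455, 324, 1013 and 531 CPM in sections 30 to 34. It overlapped between the stretches through section 33, and pooled it was 2.03-fold (1.84–2.24) higher at the wound edge and 2.52-fold (2.17–2.95) without section 34. ENO3, the muscle enolase, was 7.93-fold (7.16–8.79) higher in the muscle-rich stretch and 3.97-fold (3.52–4.49) without section 34, and LDHB, lactate dehydrogenase B, 5.24-fold (4.72–5.84) and 3.59-fold (3.17–4.07). The phosphoglycerate mutase gene pgam1a, the list member with most counts after GAPDH, differed 1.96-fold (1.86–2.06).

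**Figure D4:**
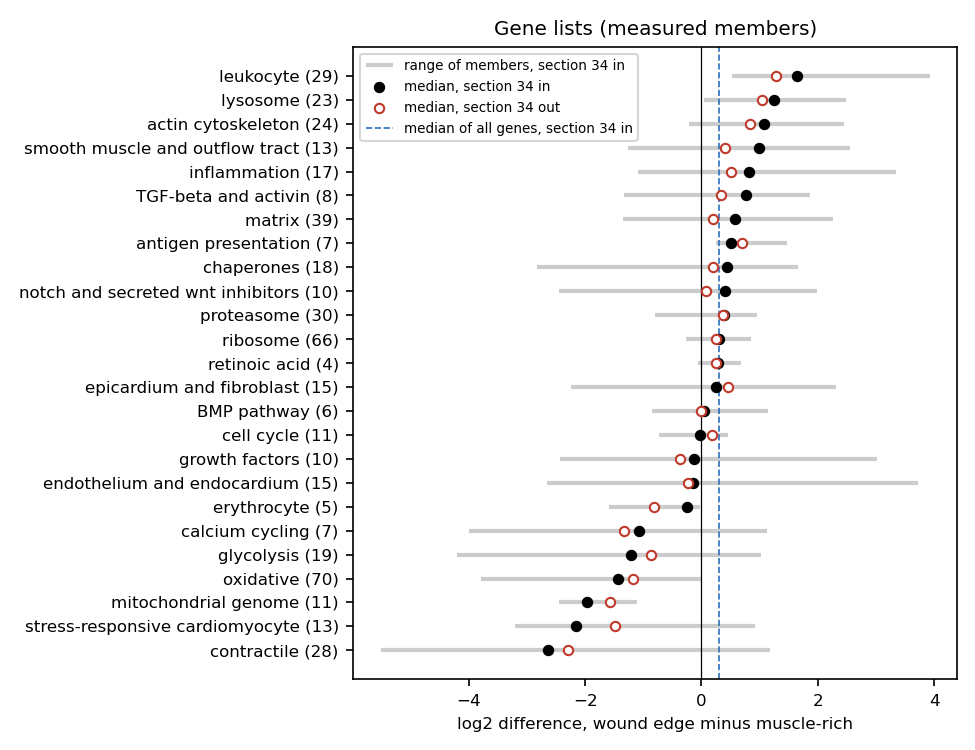
Median log2 difference, wound edge minus muscle-rich, of the measured members of 25 gene lists with at least 4 of them, with section 34 (filled) and without it (open), the range of the members (grey bar) and the median of all genes, 0.31 (dashed). The lists run from a median of −2.64 for contractile genes to 1.65 for leukocyte genes.

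The wound edge in turn held more leukocyte RNA. Of 29 leukocyte genes measured, 26 were at least 2-fold higher at the wound edge and 0 in the muscle-rich stretch, with a median difference of 1.65; without section 34 these were 19, 0 and 1.27. CORO1A, an actin regulator of leukocytes, lay between 335 and 9157 CPM at the wound edge, with a median of 1183 CPM, and at 783, 603, 347, 135 and 236 CPM in sections 30 to 34. The highest value is that of shallow section 24, and sections 19, 22, 23 and 26 lay inside the muscle-rich range. Pooled, it was 3.26-fold (2.91–3.66) higher at the wound edge and 2.42-fold (2.09–2.81) without section 34. ptprc, the pan-leukocyte surface phosphatase CD45, was 5.98-fold (4.08–9.02), and 3.59-fold (2.27–5.95) without section 34, and SPI1, a myeloid transcription factor, had 56 counts against 3. Of 14 leukocyte marker IDs, 8 were measured. Too low to be among them, lyz, the lysozyme of neutrophils and macrophages, had 18 counts at the wound edge and 0 in the muscle-rich stretch.

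MFAP4, which marks zebrafish macrophages, differed 4.47-fold (3.33–6.09) for ENSDARG00000090783, with the higher level at the wound edge, and c1qb, a complement component made by macrophages, at 5.18-fold (3.89–6.98). The cathepsin S genes ctss2.1 and ctss2.2, proteases of antigen processing, were 10.8-fold (7.20–16.9) and 3.56-fold (3.15–4.04) higher at the wound edge, and ctss2.1 was 5.04-fold (3.25–8.19) without section 34. apoeb, an apolipoprotein of lipid-laden macrophages and microglia, was 7.30-fold (4.58–12.2) and 20.1-fold (6.74–98.9) without section 34, when only 3 muscle-rich counts remained. The wound edge was not where leukocyte genes peaked: their sum was 11430 CPM there, 14400 CPM in the inner wound and 4387 CPM in the muscle-rich stretch.

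Lysosome genes accompanied them, and antigen presentation genes did so only in part. Of 23 lysosome genes, 14 were at least 2-fold higher at the wound edge and 0 in the muscle-rich stretch, with a median of 1.24, or 1.04 without section 34. CD63, a membrane protein of late endosomes, was between 1181 and 2736 CPM at the wound edge, with a median of 1683 CPM, and at 1565, 603, 676, 1823 and 512 CPM in sections 30 to 34, so that sections 30 and 33 lay inside the wound edge range. NPC2, which moves cholesterol out of lysosomes, was 3.90-fold (3.22–4.76) higher and 2.45-fold (1.94–3.12) without section 34. CTSZ and LIPA, a lysosomal protease and the lysosomal lipase, were 5.44-fold (4.19–7.17) and 5.92-fold (3.72–9.82) higher at the wound edge, and CTSZ was 3.09-fold (2.27–4.27) without section 34. The lists overlap, since CD63, CTSD, LGMN, ctsla, CTSK and grna stand in the leukocyte list as well. Of 7 antigen presentation genes, 3 were at least 2-fold higher at the wound edge, namely cd74a, cd74b and mhc2dab of the class II pathway, and 0 without section 34. b2m, the class I light chain, was close to equal at 4096 and 3327 CPM.

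Actin cytoskeleton genes summed to 81860 CPM at the wound edge and 34700 CPM in the muscle-rich stretch. Of 24 measured, 14 were at least 2-fold higher at the wound edge and 0 in the muscle-rich stretch, with a median of 1.07, and 8 and 0 without section 34, with a median of 0.83. tmsb4x, the actin-sequestering thymosin beta 4, was between 34190 and 75660 CPM at the wound edge, with a median of 52700 CPM, and at 32510, 26660, 22600, 42940 and 11950 CPM in sections 30 to 34. Section 33 was above section 18, no other pair overlapped, and the pooled fold was 2.87 (2.83–2.92), or 1.98 (1.94–2.02) without section 34. The cytoplasmic actin gene actb2 was 2.04-fold (1.99–2.09) higher at the wound edge and 1.36-fold (1.32–1.40) without section 34. COTL1, an actin-bundling protein rich in leukocytes, was 4.49-fold (3.69–5.50) higher and 2.74-fold (2.17–3.51) without section 34. Leukocyte genes moved with the whole group, at 9273 to 24100 CPM against 3654 to 9000 CPM per section, and their part in these differences was not tested.

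Inflammation genes were mixed: 7 of 17 were at least 2-fold higher at the wound edge and 1 in the muscle-rich stretch, with a median of 0.82. The shares of all genes were 21.1% and 12.4%. Without section 34 the counts were 4 and 1, against 16.9% and 12.1% of all genes, and the median was 0.51. MMP9, a matrix protease of inflammatory cells, had 81 counts against 8, an 11.7-fold (5.65–27.9) difference and 6.13-fold (2.70–17.2) without section 34. CXCL12, a chemokine for leukocytes and progenitor cells, was between 0 and 1558 CPM at the wound edge, with a median of 849 CPM, and at 419, 369, 468, 3375 and 259 CPM in sections 30 to 34. The shallow section 33 was above every wound edge section, and by the mean of section CPM in place of pooled counts the order reversed, to −0.38 on the log2 scale, against 1.40 pooled. JUNB, an immediate early transcription factor, was 2.17-fold (2.02–2.33) higher at the wound edge and 1.42-fold (1.31–1.55) without section 34. SOCS3, a feedback inhibitor of cytokine signalling, was under 2-fold apart for both of its IDs.

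Apart from the lists, the named wound edge genes with the firmest folds were taken by a rule that ranks genes by the lower end of the fold's interval without section 34. Several belong to macrophages or other leukocytes: il2rga, the shared gamma chain of interleukin receptors, was 9.27-fold (5.99–14.98) higher at the wound edge, and IRF5, an interferon regulatory factor of myeloid cells, was 3.84-fold (1.98–8.04). All 12 muscle-rich counts of IRF5 lay in section 34, and without it IRF5 was at least 6.06-fold higher with the floor of 3 counts. Without section 34 il2rga had 185 counts against 6. gsdmea, a gasdermin of the pore-forming family behind lytic cell death, had 45 counts against 12, all 12 in section 34, and the granulin gene grna.2 had 94 against 4. eslec had 152 counts against 7, all 7 in section 34, and si:dkey-78l4.6, whose role is not annotated here, had 60 against 0, at least 23.04-fold higher with the floor of 3 counts. eslec was higher still in the inner wound, at 793 CPM against 130 CPM at the wound edge. So were si:dkey-78l4.6, at 102.8 against 51.5 CPM, and grna.2, at 112.3 against 80.6 CPM. il2rga was near equal, at 162.4 and 158.7 CPM. For IRF5 and gsdmea the ratios of wound edge to inner wound, 1.41 (0.789–2.61) and 1.14 (0.685–1.94), had intervals that included 1. So did that of SLC43A3, named next, at 1.05 (0.798–1.385). PMM2 and AATK, also named next, were lower in the inner wound, with ratios of 1.85 (1.32–2.63) and 1.67 (1.14–2.49). PMM2, an enzyme of mannose metabolism for glycosylation, was 15.8-fold (8.33–33.7) higher, AATK, a kinase first found in dying myeloid cells, 9.60-fold (5.26–19.2), or 15.1-fold (5.03–74.7) without section 34 on 3 muscle-rich counts, and SLC43A3, a solute carrier, 9.76-fold (5.89–17.2).

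In the muscle-rich direction the same rule named GPR182, MYOZ2, SPOCK3, GCDH, PDK4, CACNB1, KLHL41, lcorl, MT-ND5, LMOD2, epoa and TMEM47. For lcorl and CACNB1 the difference rests on sections 30 to 33. Section 34 had 11.1 and 18.4 CPM of them, against 12.0 and 17.2 CPM at the wound edge. This selection leans on a limit of 60% for the largest section: section 32 holds 75.1% of the counts of sections 30 to 33, so most strong muscle genes fail it. With that limit dropped, a change made after the data were seen, the 12 genes were MYL7, nppa, CASQ2, ckma, GAPDH, TMEM38A, myh7ba, MYOM2, ostn, ACTA1 (ENSDARG00000055618), pln1 and COX6A1. TMEM38A, a potassium channel of the sarcoplasmic reticulum, had 98 counts in the muscle-rich stretch and 0 at the wound edge, at least 28.4-fold higher with the floor of 3 counts. pln1, a phospholamban gene for the regulator of the calcium pump, was 14.04-fold (9.64–21.2) higher, and ostn, a secreted peptide of muscle and bone, had 142 counts against 1. GPR182, an atypical chemokine receptor of endothelium, had 73 counts against 3. PDK4, the kinase that closes off pyruvate dehydrogenase, was 3.26-fold (1.97–5.63) higher, or 5.39-fold (3.15–9.58) without section 34, though its level of 1553 CPM in shallow section 33 stood far above the 0 to 60.4 CPM of the other muscle-rich sections. epoa, the erythropoietin gene, had 91 counts against 15, or 5.27-fold (3.03–9.79).

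Matrix genes were not a uniform group. Of 39 measured, 12 were at least 2-fold higher at the wound edge and 3 in the muscle-rich stretch, with a median of 0.58. Among all genes 21.1% and 12.4% were. Without section 34 the counts were 8 and 3, against 16.9% and 12.1% of all genes. The median was then 0.20, which is near the 0.19 of all genes. The fibrillar collagen gene col1a1a lay between 622 and 3253 CPM at the wound edge, with a median of 1466 CPM, and at 671, 1034, 3576, 1148 and 1187 CPM in sections 30 to 34. Its pooled ratio of wound edge to muscle-rich was 1.04 (0.980–1.099), and without section 34 it was 0.664 (0.623–0.709). COL1A2, the partner chain of type I collagen, was 1.59-fold (1.46–1.74) higher at the wound edge, with a ratio of 0.891 (0.809–0.982) without section 34. Fibronectin, a matrix protein laid down early in fish heart repair, was listed as FN1 under both IDs: ENSDARG00000006526 was 1.49-fold (1.44–1.54) and ENSDARG00000019815 3.63-fold (3.25–4.05) higher at the wound edge. Without section 34 ENSDARG00000006526 was 1.205-fold (1.152–1.259) higher.

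THBS1, the matricellular thrombospondin, was between 452 and 968 CPM at the wound edge, with a median of 817 CPM, and at 168, 258, 264, 135 and 77.4 CPM in sections 30 to 34. The stretches did not overlap, and the fold was 4.42 (3.77–5.19), or 2.56 (2.13–3.10) without section 34. THBS1 was 88.0 CPM in the inner wound. vcanb, a versican, was 5.05-fold (3.12–8.54) higher at the wound edge and 2.79-fold (1.60–5.18) without section 34. COL12A1 under ENSDARG00000019601 was 4.04-fold (3.18–5.17) and 2.67-fold (1.99–3.65). The protease inhibitor TIMP2 under ENSDARG00000075261 was 4.69-fold (3.83–5.78) higher with section 34 and 3.66-fold (2.80–4.875) without it. POSTN, periostin of activated fibroblasts, LOXL2, a collagen cross-linking enzyme, and CCN1, a matricellular protein, were the 3 on the muscle-rich side, at 2.65-fold (1.56–4.71), 2.49-fold (1.63–3.91) and 2.17-fold (1.56–3.05).

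Epicardial and fibroblast genes had a median of 0.24, under the 0.31 of all genes, and 0.46 without section 34. Of 15 measured, 3 were at least 2-fold higher at the wound edge, namely krt18a.1, anxa5b and ANXA1, and 1, TCF21, in the muscle-rich stretch. Over all genes the shares were 21.1% and 12.4%, and 3 of 15 is near the first. krt18a.1, a keratin of epithelial-like cells, lay between 1134 and 3683 CPM at the wound edge, with a median of 1842 CPM, and at 2096, 2362, 847, 1688 and 480 CPM in sections 30 to 34. The ranges overlapped, and the pooled fold was 3.01 (2.80–3.24), or 1.93 (1.77–2.11) without section 34. TCF21, a transcription factor of epicardium and cardiac fibroblasts, had 43 muscle-rich counts, 83.72% of them in section 34, against 7 at the wound edge. TBX18, another epicardial factor, had 71 against 55 counts. WT1 and wt1b had too few counts to be measured and lay on the other side. They had 25 and 19 counts at the wound edge against 9 and 2 in the muscle-rich stretch.

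Smooth muscle genes split between the stretches. Of 13 measured, 6 were at least 2-fold higher at the wound edge and 1 in the muscle-rich stretch, against 21.1% and 12.4% of all genes. Without section 34 these were 2 and 2, against 16.9% and 12.1%. acta2, smooth muscle actin, lay between 0 and 1059 CPM at the wound edge, with a median of 391 CPM, and at 55.9, 123, 455, 0 and 60.2 CPM in sections 30 to 34, and its fold of 2.68 (2.30–3.13) was 1.33 (1.12–1.57) without section 34. MYH11, smooth muscle myosin, held its direction at 6.25-fold (3.80–10.8) and 4.68-fold (2.44–10.1). Transgelin, an actin-binding protein of smooth muscle listed as TAGLN, pointed both ways: ENSDARG00000033466 was 2.19-fold (2.03–2.36) higher at the wound edge and ENSDARG00000045408 1.998-fold (1.73–2.32) higher in the muscle-rich stretch. Without section 34 the first was 1.99-fold (1.79–2.21) and the second 2.59-fold (2.19–3.07).

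Endothelial and endocardial genes mostly stayed within 2-fold: of 15 measured, 1 was higher at the wound edge and 2 in the muscle-rich stretch. The shares of all genes were 21.1% and 12.4%, and 2 of 15 is near the second. The list median was −0.14, and −0.24 without section 34. cdh5, the cadherin of endothelial junctions, lay between 184 and 964 CPM at the wound edge, with a median of 502 CPM, and at 950, 1366, 684, 878 and 575 CPM in sections 30 to 34. The ranges overlapped, and the muscle-rich to wound edge ratio was 1.39 (1.25–1.55). Levels of cdh5 climbed inside the wound edge, from 339 CPM (287–399) over sections 18 to 20 to 893 CPM (710–1108) over 24 to 26, and the inner wound had 35.2 CPM. vwf, the adhesive protein of vessel walls and thrombocytes, was 2.35-fold (1.79–3.12) and SPOCK3, a secreted proteoglycan, 6.51-fold (4.54–9.61) higher in the muscle-rich stretch. SPOCK3 reached 1330 CPM (904–1888) over sections 27 to 29, between the stretches.

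Claudin 5, a tight junction protein of endothelium, was listed under both CLDN5 IDs with unlike patterns. ENSDARG00000014059 lay between 0 and 449 CPM at the wound edge, with a median of 189 CPM, and at 0, 111, 7.54, 0 and 7.37 CPM in sections 30 to 34. It was 14.1-fold (8.70–24.2) higher at the wound edge, and 8.33-fold (4.67–16.4) without section 34. ENSDARG00000043716 was at 66.9 CPM at the wound edge and 73.7 CPM in the muscle-rich stretch, a ratio of 0.908 (0.666–1.23). Without section 34 it was 1.92-fold (1.37–2.69) higher in the muscle-rich stretch.

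Of 10 Notch pathway and secreted Wnt inhibitor genes, 2 were at least 2-fold higher at the wound edge and 1 in the muscle-rich stretch, and without section 34 these were 0 and 1. The counts with section 34 are near the shares of all genes, 21.1% and 12.4%. SFRP5, a secreted Wnt inhibitor, lay between 0 and 666 CPM at the wound edge, with a median of 238 CPM, and at 950, 1157, 1189, 135 and 1460 CPM in sections 30 to 34. Section 33 lay inside the wound edge range, on 2 counts, and the pooled fold was 5.47 (4.83–6.23) in favour of the muscle-rich stretch. dkk1b, another Wnt inhibitor, and notch2 were the 2 at the wound edge, at 4.25-fold (2.27–8.56) and 2.08-fold (1.26–3.50), against 1.82-fold and 1.33-fold without section 34. LFNG, which glycosylates Notch receptors, was 1.33-fold (1.22–1.47) higher at the wound edge. Without section 34 its ratio was 1.09 (0.969–1.226), which included 1. LFNG was 175 CPM in the inner wound against 835 CPM at the edge.

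**Figure D5:**
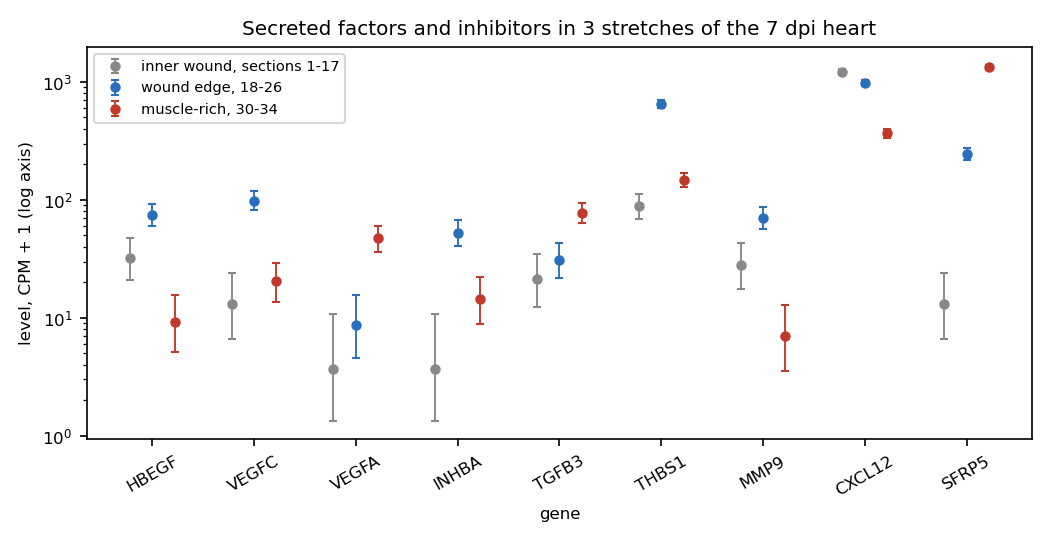
Pooled levels, as CPM + 1 on a log axis with exact 95% Poisson intervals, of 9 genes for secreted proteins in the inner wound (sections 1 to 17), at the wound edge and in the muscle-rich stretch. THBS1, INHBA and VEGFC are highest at the wound edge, at 648, 51.5 and 97.8 CPM, while VEGFA, TGFB3 and SFRP5 are highest in the muscle-rich stretch.

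Secreted growth factors differed gene by gene. Of 10 growth factor genes measured, 3 were at least 2-fold higher at the wound edge and 1 in the muscle-rich stretch, with a median of −0.13. Among all genes measured 21.1% and 12.4% were. HBEGF, a ligand of EGF receptors, lay between 38.3 and 1446 CPM at the wound edge, with a median of 83.7 CPM, and at 0, 36.9, 10.1, 0 and 4.91 CPM in sections 30 to 34. The stretches did not overlap, but 38.3 CPM in section 18 and 36.9 CPM in section 31 were nearly equal. The 1446 CPM came from shallow section 24, where 1 count was worth 482 CPM. In sections 30 and 33, both at 0 CPM, 1 count would have been 27.95 and 67.5 CPM. Pooled, with 86 counts against 11, the fold was 9.01 (4.79–18.7), or 5.58 (2.60–14.3) without section 34. A second gene of this factor, hbegfa, was nearly level with 23 counts against 33. VEGFC, which drives lymphatic growth, and VEGFA, which drives blood vessel growth, pointed in opposite directions: VEGFC had 114 counts against 26, 5.05-fold (3.28–8.06) higher at the wound edge, and VEGFA had 9 against 62, 5.98-fold (2.96–13.7) higher in the muscle-rich stretch. Without section 34 these folds were 2.47 (1.54–4.14) and 3.67 (1.51–9.51). EGFR, a receptor of HBEGF, was 2.43-fold (1.86–3.22) higher at the wound edge and 1.42-fold without section 34, and igf2b, an insulin-like growth factor, was at 237 and 252 CPM.

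Of 8 TGF-beta and activin genes, 3 were at least 2-fold higher at the wound edge and 1 in the muscle-rich stretch, with or without section 34. The shares of all genes were 21.1% and 12.4% with it and 16.9% and 12.1% without. INHBA, the activin A subunit, had 60 counts against 18, 3.84-fold (2.24–6.91) higher at the wound edge, with 2.71 CPM in the inner wound. TGFB3, a TGF-beta ligand, had 35 counts against 103, 2.55-fold (1.73–3.86) higher in the muscle-rich stretch and 3.46-fold (2.22–5.45) without section 34. tgfb1a passed 2-fold at the wound edge with section 34, at 2.13-fold (1.31–3.54), and not without it, at 1.14-fold, whereas INHBB passed without it, at 2.13-fold (1.40–3.32).

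The study asks about bone morphogenetic protein (BMP) signalling, and of its pathway genes 6 of 24 were measured, with a median of 0.05. At least 2-fold higher were 1 gene at the wound edge, against 21.1% of all genes, and 0 in the muscle-rich stretch, against 12.4%. BMPR2, the type II receptor, was that gene, at 2.27-fold (1.42–3.67), and 1.52-fold (0.873–2.79) without section 34. The targets ID1, ID2 and ID3, inhibitors of differentiation that BMP signals induce, stood at 200 and 152, 40.3 and 73.7, and 63.5 and 55.8 CPM. id2b was at 60.03 and 92.3 CPM, a muscle-rich to wound edge ratio of 1.54 (1.14–2.09), and 2.42 (1.73–3.40) without section 34. The receptor gene acvr1l had 32 and 39 counts. No BMP ligand reached 50 counts over both stretches, the minimum used here, so ligands were not compared.

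Retinoic acid genes were within 2-fold for all 4 measured: ALDH1A2, the enzyme that makes retinoic acid, was 1.60-fold (1.34–1.92) higher at the wound edge, and CYP26B1, which degrades it, CRABP2, which carries it, and the receptor rxrbb were nearer to equal. The cell cycle list had 11 of 33 genes measured, 0 at least 2-fold apart, against 33.5% of all genes, and a median of −0.03. Without section 34, 2 were higher at the wound edge and the median was 0.18. CCND2, a cyclin of early cell cycle entry, under ENSDARG00000070408 was then 2.22-fold (1.31–3.99) higher there, against 1.02-fold with it. PCNA, the sliding clamp of DNA replication, was at 3296 CPM at the wound edge and 5460 CPM in the muscle-rich stretch, 1.66-fold (1.59–1.72) higher in the latter, and 1.42-fold without section 34. CDK1, the kinase that starts mitosis, had 30 and 25 counts.

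Ribosomal protein genes, 66 measured, had 0 at least 2-fold apart and a median of 0.30, close to that of all genes, and proteasome genes, 30 measured, 0 and 0.39. Chaperones were mixed: 5 of 18 were higher at the wound edge and 4 in the muscle-rich stretch, against 21.1% and 12.4% of all genes. Among the 5 were HSP90B1 at 3.10-fold (2.70–3.57) and CALR at 2.72-fold (2.28–3.25), chaperones of the endoplasmic reticulum. The 4 were hsc70 at 7.54-fold (4.48–13.6), hsp90aa1.1, a chaperone of myosin folding in fish muscle, at 6.67-fold (4.52–10.2), HSPB1 and HSPB8. Without section 34 hsp90aa1.1 was 3.64-fold (2.25–5.99) and HSPB8 1.95-fold (1.22–3.08) higher. Of 5 erythrocyte genes measured, 1 passed, the spectrin gene SPTB with 13 counts against 48, which reversed to 0.75 on the log2 scale by the mean of section CPM, and the alpha globin gene hbaa2 was at 321 and 525 CPM, a ratio of 1.64 (1.44–1.86) in favour of the muscle-rich stretch. Without section 34, 2 of the 5 passed, and hbaa2 was 2.21-fold (1.91–2.56) higher there. Both measured IDs of the atrium list, named nppa and MYH6 (ENSDARG00000079564), were higher in the muscle-rich stretch, MYH6 at 3.56-fold (3.17–3.996). A capital symbol can stand for a paralog, and whether this MYH6 ID is the atrial myosin gene was not checked. The gene hey1 has no matched ID here, and the part of atrial tissue was not tested.

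Because section 34 holds most muscle-rich counts, it was set against sections 30 to 33. In it 282 genes were at least 2-fold higher (7.32% of those measured) and 686 at least 2-fold lower (17.8%), with a median gene of −0.20 on the log2 scale. Glycolysis genes leaned to section 34, with 8 of 19 higher and 0 lower, matrix genes away from it, with 1 of 39 higher and 19 lower, and leukocyte genes away, with 1 of 29 and 9. MYH7 was 2.95-fold (2.84–3.08) higher in section 34, ENO3 2.64-fold (2.44–2.87), PYGM, the muscle glycogen phosphorylase, 4.69-fold (2.67–8.89) and ACADL, a fatty acid oxidation enzyme, 5.95-fold (3.82–9.70). acta2 there was at 60.2 CPM against 364 CPM, and nppa at 1295 CPM against 2647 CPM. Of the choosing markers, MYL7 was 1.16-fold (1.101–1.22) and cmlc1 1.94-fold (1.87–2.002) higher in section 34.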

How the data were processed

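The deposited table of the 7 dpi heart holds whole-number counts per Ensembl gene ID and section, not normalized by the authors, as the values show. Its unit is entered as other, because its columns are bare section numbers. Reads were aligned with BWA 0.6.2, per the submitters' processing notes; the genome build, annotation, strand and any use of molecular identifiers are not given in the sources used here, so reads of overlapping genes or near-identical paralogs may be shared. The 3 dpi table was not used. The 44 spike-in rows were left out, and columns of other samples numbered 0. A table of names matched 13135 of 16115 IDs. List members matched without regard to case, or else a capital symbol equal to the member without its final number, a or b, a rule chosen after the names were seen that can put paralogs under 1 symbol.

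Counts were pooled per stretch and scaled to CPM. Differences on the log2 scale took a pseudocount of 1 CPM, for genes with a minimum of 50 counts over both stretches. Fold intervals are exact 95% (Clopper-Pearson) intervals of the division of counts, and levels have exact Poisson intervals. Calculations used Python 3.11.15, pandas 2.3.3, NumPy 2.4.6 and SciPy 1.17.1 and were tested on simulated data. The sections, genes and 26 lists were chosen with earlier results of these data known. Genes were named as the 12 in each direction of highest lower interval bound without section 34, if at least 2-fold apart with and without it, with counts in at least 5 wound edge or 3 muscle-rich sections and no section over 60% of the stretch. The 4 members of each list with most counts, all members of lists of up to 6, MYL7 and cmlc1 were named too; further members were named after their values were seen. Alternatives were other scalings, pseudocounts, count minimums, folds and choices of sections. Some genes that this rule names are not reported here.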

Additional observations from a re-analysis of the deposited data

How the results depend on the processing

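With 1 heart there is no replicate error, and no section can stand in for it. No paired analysis was possible because there was 1 heart at 7 dpi and both stretches come from it. The counts of 813 genes higher at the wound edge and 476 in the muscle-rich stretch became 518 and 317 without section 34 with the count minimum taken anew, 502 and 652 with median-of-ratios scaling, 1635 and 870 with a minimum of 20 counts, 214 and 201 with 200, 3875 and 2288 with none, and 146 and 176 at 4-fold. Lists with a median at least 2-fold above 0 numbered 3, but 1 with median-of-ratios scaling and 1 by the mean of section CPM; at 4-fold there were 0 above and 2 below, against 6 below. Leaving out other sections one at a time, an alternative added after the data were seen, gave 674 to 904 and 428 to 488 genes, 3 to 5 lists above and 5 to 6 below. The lowest count, 674, is that without section 22. By the mean of section CPM, the log2 difference of 52 named genes and the median of 4 lists moved by over 1.5-fold and those of 74 genes did not, and CXCL12 reversed to −0.38 and SPTB to 0.75 on the log2 scale. Under some alternative the median changed sign for the lists of BMP pathway, cell cycle, epicardium and fibroblast, growth factors, Notch and Wnt inhibitors, retinoic acid and ribosome, and for no other list. Without section 34, 33 named genes moved by over 1.5-fold. Shallow sections 24, 25 and 33 limit single-section values, but leaving them out gave 814 and 481 genes.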

Other observations

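Several genes outside the lists, named after their values were seen, stood far apart. At the wound edge, plaua, a urokinase gene of plasminogen activation, had 93 counts against 5, a 21.4-fold difference (8.86–67.5), or 10.6-fold (3.99–39.6) without section 34. f5, coagulation factor V, had 112 against 8. The inner wound had 44.7 CPM of plaua and 24.4 CPM of f5, against 79.8 and 96.05 CPM at the wound edge. F13A1, the clot cross-linking factor XIII subunit that macrophages also make, was at 5421 CPM against 1306 CPM. In the inner wound F13A1 was at 4617 CPM, with 3431 CPM over sections 1 to 10 and 7102 CPM over sections 11 to 17. cd9b, a tetraspanin, was 11.4-fold (7.85–17.03) higher, at 262 CPM against 23.1 CPM, and 5.56-fold (3.69–8.73) without section 34. tnfrsf9a, a receptor of the tumour necrosis factor family, had 97 counts against 7, with 53.61% of its wound edge counts in section 26, and 6.77 CPM in the inner wound. ADM, the vasodilator peptide adrenomedullin, had 51 against 4, with 5.41 CPM in the inner wound.

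In the muscle-rich stretch, mb, myoglobin, the oxygen store of muscle, was 12.9-fold (11.7–14.3) higher, at 4761 CPM against 369 CPM, and 7.96-fold (7.15–8.88) without section 34, which held 75.69% of its muscle-rich counts. The inner wound had 18.9 CPM of mb. trim63a, a ubiquitin ligase of sarcomere turnover, had 76 counts against 1, and TRIM55, a relative of it, had 74 against 6. BVES, a membrane protein of heart muscle, and RNF207, a regulator of cardiac repolarisation, had 241 against 23 and 151 against 19 counts. The pyruvate dehydrogenase kinase PDK2 appeared under a pair of IDs, with 369 against 38 and 72 against 8 counts, on the same side as PDK4.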
